A study of Homo sapiens with 24 samples.

Results

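The genes described here are 10 enzymes and core subunits that write or remove a pair of chromatin marks, trimethylation of lysine 27 on histone H3 and methylation of cytosine in DNA. They were taken by name from the count table, in which each of the 10 symbols matched 1 of the 60668 gene identifiers. EZH1, EZH2, SUZ12 and EED belong to Polycomb repressive complex 2 (PRC2), and DNMT1, DNMT3A, DNMT3B, HELLS, TET1 and TET2 act on DNA methylation. All 10 had enough counts in these libraries to be among the 22158 genes tested. In RefSeq's GRCh38.p14 annotation EZH1 spans chr17:42700275-42745040, EZH2 chr7:148807383-148884291, DNMT1 chr19:10133346-10194953 and DNMT3A chr2:25227874-25342590, all on the minus strand. On the plus strand SUZ12 spans chr17:31937007-32001038, EED chr11:86244753-86287615, DNMT3B chr20:32762385-32809356, HELLS chr10:94545788-94613905, TET1 chr10:68560337-68694487 and TET2 chr4:105145875-105279803.

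The samples were 24 RNA-seq libraries from MCF-10A, an immortalised human breast epithelial line, in 8 groups of 3 replicates. The parental groups were unmodified MCF-10A cells, and the MYC-ER groups were MCF-10A cells carrying MYC-ER, by its usual meaning MYC fused to an oestrogen receptor domain that holds MYC inactive until 4-hydroxytamoxifen (4-OHT) is added. Each line was kept in 3D culture on Matrigel and given 1 µM 4-OHT for 0, 8, 24 or 48 h, with a common harvest on day 5, so that 0 h means untreated cells of the same culture age. The parental line therefore shows what 4-OHT does without the fusion protein. The labels do not give the promoter or species of the fusion, or whether the MYC-ER line is 1 clone. They describe wells seeded in triplicate and name no separate experiments, so the p-values measure the spread between these samples, which may be technical.

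PRC2 places the repressive H3K27 methyl mark through one of a pair of alternative catalytic subunits, EZH2, which predominates in dividing cells, and EZH1, which is retained in resting and differentiated cells. EED and SUZ12 are the scaffold that either enzyme needs. DNMT1 copies existing DNA methylation onto the new strand behind the replication fork, DNMT3A and DNMT3B methylate sites anew, HELLS remodels nucleosomes so that DNA in compact chromatin can be methylated, and the TET enzymes oxidise methylcytosine as a first step of its removal.

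Library totals ran from 136860029 to 182438505 counts, and a count of 0 in the smallest library allows a level of up to 0.0219 CPM, taking 3 counts as the limit and covering counting error alone. Here CPM are counts scaled to a common library size with TMM factors. KRT5 and TP63, which mark basal mammary epithelium, were present in both lines, with KRT5 at 12530 ± 238 CPM in MYC-ER and 13280 ± 1135 CPM in parental cells at 0 h (SD, n = 3), whereas KRT14 was at 626 ± 23.6 CPM in MYC-ER and 9725 ± 1866 CPM in parental cells. Lists for other cell types were low but not all at 0. The 4 hormone-responsive luminal genes summed to 11.2 to 20.2 CPM over the 24 libraries, mostly GATA3, with PGR at 0 counts throughout. The 3 immune genes summed to 4.20 to 23.6 CPM, nearly all of it CD68, which is not limited to immune cells, with CD3E at 0 counts and PTPRC at no more than 0.0124 CPM. The 3 endothelial genes, with CDH5 at 0 counts, summed to at most 2.32 CPM, and the 2 fat cell genes, with ADIPOQ at 0 counts, to at most 1.71 CPM. CD68 itself fell by 1.17 on the log2 scale in MYC-ER cells at 24 h (adjusted p = 2.35e-07) and GATA3 by 0.62 (adjusted p = 1.09e-07), and their part in the results was not tested. COL1A2 of fibroblasts did not exceed 0.0573 CPM. The 5 fibroblast genes together, mainly COL1A1 and DCN, summed to 370 to 377 CPM in MYC-ER and 117 to 133 CPM in parental cells at 0 h. Replicate 2 of the parental 0 h group stood apart from its 2 partners for SUZ12 and TET2, and the results of these genes that it moves are given with and without it. It was also the highest of the 3 for DNMT3B, HELLS and TET1. Among other listed genes the parental 0 h libraries spread widely too, as for TET3 at 26.5 to 49.4 CPM and KDM6A at 19.65 to 29.4 CPM.

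In MYC-ER cells the 10 genes split into opposite courses after 4-OHT. DNMT1, HELLS and EZH2 rose, with peaks at 24 h that were 5.90-fold, 8.35-fold and 4.02-fold above 0 h, while EZH1 and DNMT3A fell, EZH1 to its lowest level at 8 h (3.00-fold lower) and DNMT3A at 24 h (2.20-fold lower). TET1, TET2 and DNMT3B fell at 8 h and were back at or above their starting levels by 24 h. At 8 h 9 of the 10 genes passed the test, 4 higher and 5 lower. So many genes changed that this count has little weight: 67.6% of all genes tested passed at 8 h, 32.2% higher and 35.4% lower. At 24 h 8 passed, 6 higher and 2 lower, beside 61.6% of all genes (30.4% higher and 31.2% lower). At 48 h 6 passed, 3 in each direction, beside 44.1% of all genes (23.4% higher and 20.7% lower). With scaling by library size alone, 4 of the 10 passed at 48 h, and the split over all genes became 7212 higher of 9769 called, with the median of all genes moving by 0.162 on the log2 scale. The median log2 changes of the 10 genes at 8, 24 and 48 h were -0.16, 0.50 and -0.01, beside -0.10, -0.02 and 0.03 for all genes tested. Because the comparisons with 0 h share the same 0 h libraries, their values are not independent of each other.

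**Figure D1:**
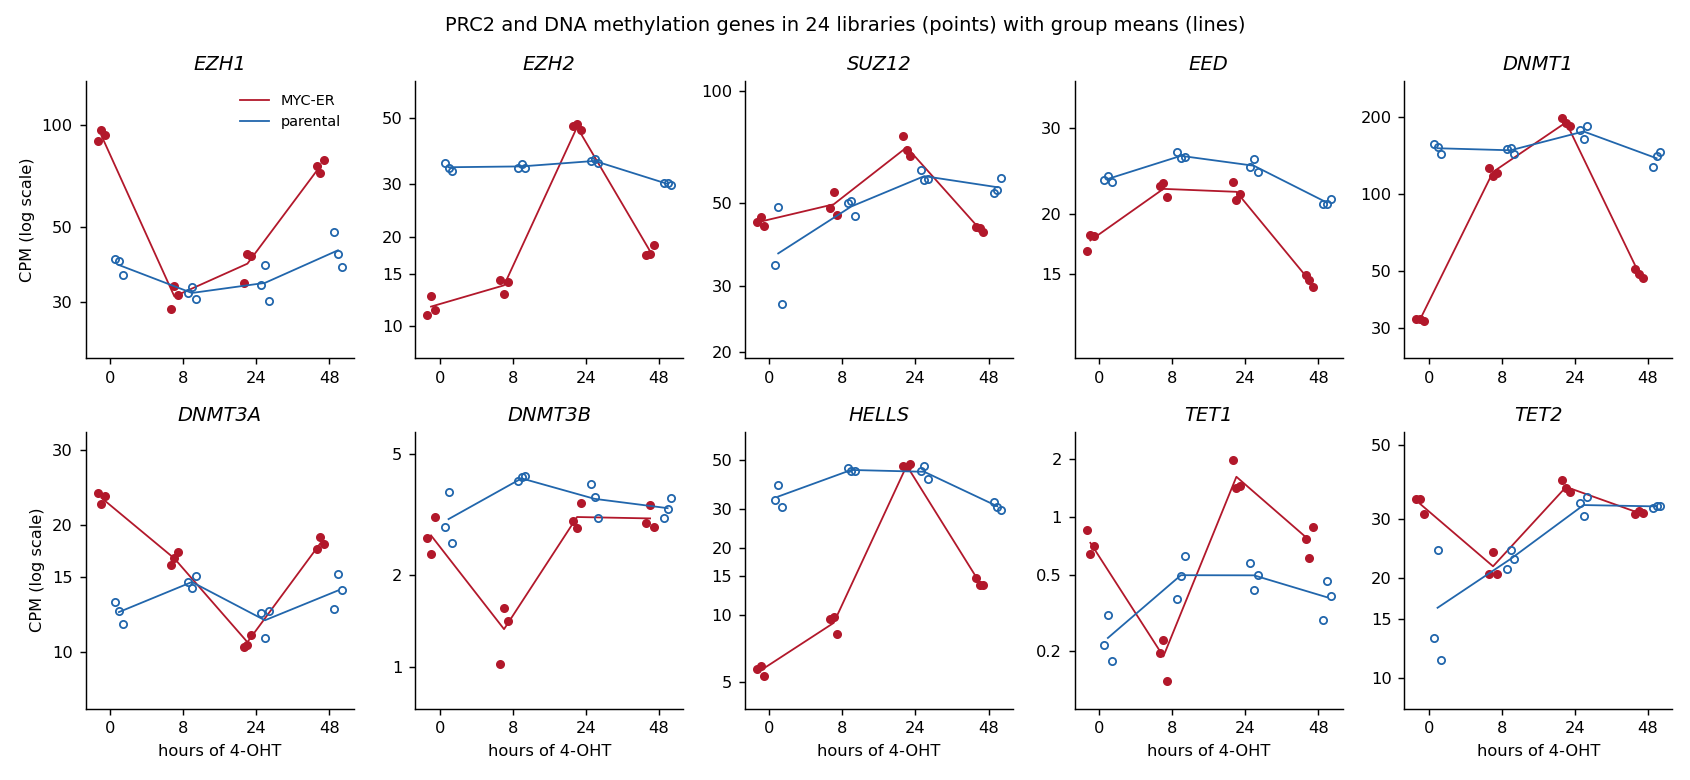
CPM (log scale) of each of the 10 genes in every library against hours of 4-OHT, with filled red points for MYC-ER, open blue points for parental cells and lines joining the group means. EZH2, DNMT1 and HELLS start low in MYC-ER cells and reach or pass the parental points at 24 h, whereas EZH1 and DNMT3A start above the parental points and drop onto them.

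EZH2, the catalytic subunit of dividing cells, was measured at 10.9, 12.6 and 11.3 CPM in the 3 untreated MYC-ER libraries and at 14.3, 12.8 and 14.1 CPM after 8 h. It then stood at 47.0, 47.7 and 45.5 CPM at 24 h and at 17.3, 17.6 and 18.7 CPM at 48 h. None of these 4 sets of replicates overlapped another. The log2 change against 0 h was 0.24 ± 0.05 (SE) at 8 h, 2.01 ± 0.05 at 24 h and 0.62 ± 0.05 at 48 h, with adjusted p = 0.000512, 3.4e-18 and 3.78e-09 by edgeR's quasi-likelihood test with Benjamini-Hochberg adjustment, which is the test behind every adjusted p here. The small 8 h rise did not pass under upper-quartile scaling (0.10, adjusted p = 0.117) and was 0.15 with library size alone (adjusted p = 0.0293). Most of the EZH2 rise therefore fell between 8 and 24 h, where the log2 change was 1.77 ± 0.05 (adjusted p = 5.73e-17), and between 24 and 48 h EZH2 fell by 1.39 (adjusted p = 5.17e-15). In bulk RNA, more cells of a kind and more RNA per cell cannot be told apart.

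EZH1, the alternative catalytic subunit, took the opposite course. It stood at 90.1, 96.7 and 93.5 CPM in untreated MYC-ER cells, the highest of the 8 groups. At 8 h the libraries held 28.6, 33.4 and 31.4 CPM, at 24 h 34.1, 41.6 and 41.0 CPM, and at 48 h 76.1, 72.5 and 79.1 CPM. The 8 and 24 h libraries lay between 28.6 and 41.6 CPM, where the 12 parental libraries lay between 30.1 and 48.4 CPM, and by 48 h EZH1 had returned most of the way without overlapping the 0 h libraries. EZH1 fell by 1.59 ± 0.09 on the log2 scale at 8 h (adjusted p = 1.76e-12), by 1.26 ± 0.09 at 24 h (adjusted p = 9.13e-11) and by 0.30 ± 0.09 at 48 h (adjusted p = 0.0109). The 48 h difference did not pass with scaling by library size alone (-0.14, adjusted p = 0.332). From 24 to 48 h EZH1 rose by 0.96 ± 0.09 (adjusted p = 1.12e-08).

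The ratio of EZH2 to EZH1 counts within a library does not depend on how libraries are scaled to each other. In untreated MYC-ER cells it was 0.121, 0.131 and 0.121. It reached 0.499, 0.384 and 0.448 after 8 h and 1.38, 1.15 and 1.11 after 24 h, and 48 h libraries had 0.228, 0.242 and 0.237. The 3 libraries of each time lay apart from those of every other time, and only at 24 h did EZH2 counts exceed EZH1 counts in this line. In parental cells the ratio ran from 0.626 to 1.18 over all 12 libraries, so the untreated MYC-ER cells had a ratio below every parental library. EZH2 is the shorter transcript, so these count ratios understate the ratio per length.

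**Figure D2:**
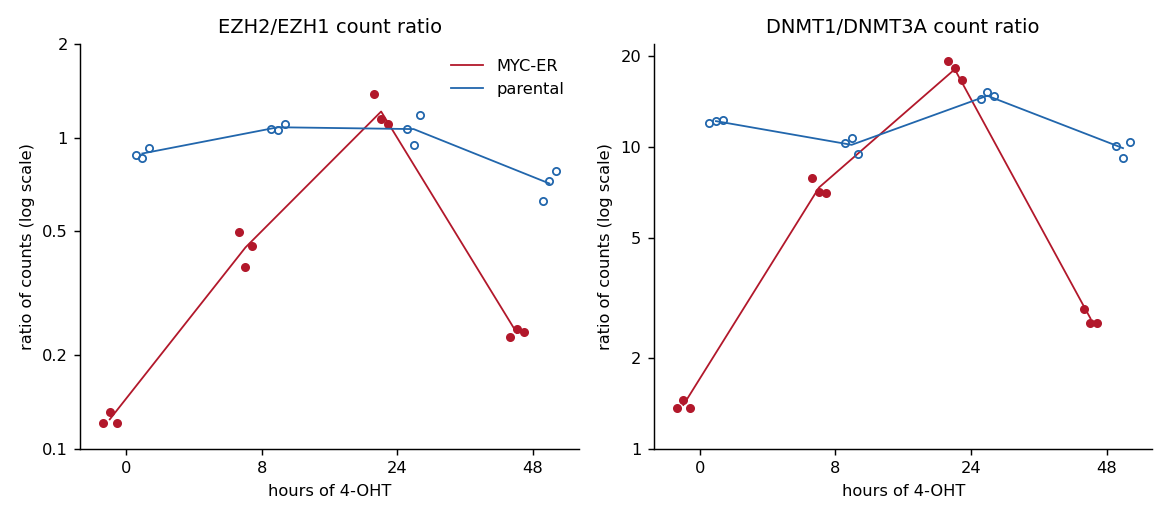
Ratio of EZH2 to EZH1 counts (left) and of DNMT1 to DNMT3A counts (right) in each library, on log axes against hours of 4-OHT, with filled red points for MYC-ER, open blue points for parental cells and lines joining group means. In MYC-ER cells the mean EZH2/EZH1 ratio goes from 0.124 to 1.21 between 0 and 24 h and the mean DNMT1/DNMT3A ratio from 1.39 to 18.1, and both are low again at 48 h.

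SUZ12, the zinc finger subunit of the PRC2 scaffold, was highest at 24 h. MYC-ER libraries held 44.4, 46.0 and 43.5 CPM at 0 h, 48.6, 53.7 and 46.6 CPM at 8 h, 75.8, 69.2 and 66.7 CPM at 24 h, and 43.1, 42.9 and 41.9 CPM at 48 h. The 24 h libraries were above all others of the line. The log2 change was 0.66 ± 0.12 at 24 h (adjusted p = 8.37e-05), and those at 8 and 48 h, 0.15 ± 0.12 and -0.07 ± 0.12, did not pass (adjusted p = 0.281 and 0.71). The 8 h replicates all lay above those of 0 h, and the 8 h value passed in a fit of those groups alone (0.19, adjusted p = 0.0111) and after removal of GC and length trends (0.16, adjusted p = 0.0356). The pseudogene SUZ12P1 was counted at 5.38 to 8.93 CPM as group means in MYC-ER cells. How reads matching both were assigned is not given in the sources used here, so SUZ12 levels are uncertain by an unknown amount. SUZ12P1 itself fell by 0.53 at 8 h (adjusted p = 3.03e-05) and did not pass at 24 h (0.20, adjusted p = 0.0645).

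EED, the subunit that binds the H3K27 methyl mark, changed by at most 1.28-fold against 0 h. It stood at 16.8, 18.1 and 18.0 CPM at 0 h, 22.8, 23.1 and 21.6 CPM at 8 h, 23.2, 21.4 and 22.0 CPM at 24 h, and 14.99, 14.6 and 14.1 CPM at 48 h. The 8 and 24 h libraries overlapped each other and lay above the 0 h libraries, and the 48 h libraries lay below them. EED rose by 0.35 ± 0.05 on the log2 scale at 8 h (adjusted p = 1.16e-06) and by 0.33 ± 0.05 at 24 h (adjusted p = 3.04e-06), and fell by 0.27 ± 0.05 at 48 h (adjusted p = 7.83e-05). With scaling by library size alone the 48 h difference did not pass (-0.11, adjusted p = 0.0888). The EED rise was reduced by over 1.5 times at 8 h with upper-quartile scaling (0.21, adjusted p = 0.000354) and at 24 h with trends on GC content and length removed (0.21, with an adjusted p of 0.000155).

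Other genes whose proteins bind PRC2, RBBP4 and RBBP7 among them, moved in both directions. Of the 10 listed 9 were tested, since EZHIP had 0 counts in all libraries. In MYC-ER cells 4 rose and 2 fell at 8 h, and 5 rose and 1 fell at 24 h. Those 6 of 9 at either time lie near the shares over all genes, 67.6% at 8 h and 61.6% at 24 h, which also stand behind the counts of the other lists at these times. The list's median log2 change at 24 h was 0.37. PHF19, a Polycomb-like protein that reads methylated H3K36, had a mean of 5.89 CPM at 0 h, 19.0 CPM at 8 h and 95.9 CPM at 24 h, a log2 change of 4.03 ± 0.06 at 24 h (adjusted p = 1.88e-22). PHF1, its paralogue, went the other way, from 46.4 CPM at 0 h to 16.1 CPM at 8 h and 15.3 CPM at 24 h, and fell by 1.60 ± 0.07 at 24 h (adjusted p = 1.34e-14).

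EPOP, which bridges PRC2 and elongin, was highest at 8 h. It had a mean of 4.42 CPM at 0 h, 56.6 CPM at 8 h and 40.9 CPM at 24 h, and its log2 changes were 3.68 ± 0.11 and 3.21 ± 0.11 at 8 and 24 h (adjusted p = 1.28e-17 and 8.88e-17). JARID2, which recruits PRC2 to chromatin, rose by 1.38 ± 0.10 at 8 h (adjusted p = 2.23e-11) and stood at 0.09 ± 0.09 at 24 h (adjusted p = 0.453). The histone chaperone RBBP7 rose by 0.82 ± 0.04 at 24 h (adjusted p = 6.68e-14), from 63.9 to 113 CPM, while its paralogue RBBP4 had a log2 change of -0.07 ± 0.05 (adjusted p = 0.272).

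Both listed enzymes that remove H3K27 methylation were lower in MYC-ER cells by 24 h. KDM6A fell by 0.88 ± 0.10 at 8 h (adjusted p = 3.89e-08) and by 0.62 ± 0.10 at 24 h (adjusted p = 6.56e-06). KDM6B fell by 0.90 ± 0.07 at 24 h (adjusted p = 7.9e-11) but did not pass at 8 h (0.04, adjusted p = 0.584). Of 16 subunits of PRC1, a complex of which some forms bind the H3K27 mark, 4 rose and 9 fell at 24 h, with a median log2 change of -0.25. CBX7, a reader of the mark, went from 25.8 CPM at 0 h to 4.49 CPM at 8 h and fell by 1.66 ± 0.07 at 24 h (adjusted p = 2.62e-15). PCGF6 rose by 0.88 ± 0.09 (adjusted p = 3.74e-08) and the ubiquitin ligase RNF2 by 0.57 ± 0.09 (adjusted p = 1.9e-05).

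DNMT1, the maintenance methyltransferase, had made most of its rise by 8 h. It stood at 32.5, 32.4 and 31.9 CPM in untreated MYC-ER cells and already at 126.5, 117.8 and 120.9 CPM after 8 h. At 24 h it reached 197, 189.8 and 183.6 CPM and at 48 h it was back at 50.8, 48.7 and 46.9 CPM. The 4 times did not overlap. DNMT1 rose by 1.92 ± 0.06 on the log2 scale at 8 h (adjusted p = 1.67e-17), by 2.56 ± 0.06 at 24 h (adjusted p = 1.5e-19) and by 0.60 ± 0.06 at 48 h (adjusted p = 1.27e-08). Between 8 and 24 h it rose by a further 0.64 ± 0.06 (adjusted p = 1.74e-09), and between 24 and 48 h it fell by 1.96 ± 0.06 (adjusted p = 8.06e-17).

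HELLS, the nucleosome remodeller, had the largest rise of the 10 genes at 24 h. Its libraries held 5.72, 5.88 and 5.30 CPM at 0 h and 9.63, 9.80 and 8.22 CPM at 8 h, then 47.1, 46.3 and 47.8 CPM at 24 h and 14.6, 13.7 and 13.6 CPM at 48 h. No library of 1 time overlapped another time. The log2 changes at 8, 24 and 48 h were 0.71 ± 0.08, 3.06 ± 0.08 and 1.31 ± 0.08, with adjusted p = 5.03e-08, 2.24e-18 and 8.29e-12. HELLS was still 2.48-fold above its starting level at 48 h, where DNMT1 was 1.51-fold and EZH2 1.54-fold above theirs.

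The promoters of EZH2, DNMT1 and HELLS hold short words of the kind bound by E2F factors, which switch on S phase genes. The words TTTGGCGC, TTTCCCGC, TTTCGCGC and TTTGCCGC were searched on both strands of RefSeq windows reaching from 250 bases before to 50 bases after each annotated start (GRCh38.p14), and 3.99% of 27305 genes hold at least 1 (3.31% of 35116 windows, with 1 to 6 windows for each of the 10 genes). Among the 10 genes EZH1, EZH2, SUZ12, DNMT1 and HELLS hold them, and EED, DNMT3A, DNMT3B, TET1 and TET2 do not in these windows. The 30 bases around each word are shown 5′ to 3′ on the gene's own strand, with the word or its reverse complement in capitals.
EZH2, chr7:148884272-148884301, minus strand: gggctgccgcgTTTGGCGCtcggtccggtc
DNMT1, chr19:10194937-10194966, minus strand: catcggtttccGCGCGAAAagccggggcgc
HELLS, chr10:94545701-94545730, plus strand: aaccgcaagctGCGCCAAAtctcgcgcagc
HELLS, chr10:94545769-94545798, plus strand: gatgacaggatTTTCCCGCgaaggagaagc
SUZ12, chr17:31936807-31936836, plus strand: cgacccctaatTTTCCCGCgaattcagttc
EZH1, chr17:42745137-42745166, minus strand: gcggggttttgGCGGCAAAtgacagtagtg

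Counting the first transcribed base as 1, the word begins at base 2 in EZH2. It begins 2 bases before the start in DNMT1, 76 and 8 bases before it in HELLS, 189 bases before it in SUZ12 and 115 bases before it in EZH1. Such a word was thus found in genes that rose and also in EZH1, which fell, and its part in the changes was not tested. The E-box CACGTG, a word bound by MYC with MAX, was found in DNMT3A and 14 bases before a start of TET2, both of which fell at 8 h. In DNMT3A it lies 127 and 75 bases before alternative starts inside the gene, not before the outermost start. Of all genes 8.77% hold the word (7.26% of windows). These are matches of letters, not measured binding.

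Partners of DNMT1 and HELLS mostly rose with them. All 8 listed partners passed at 8 h, 7 higher and 1 lower, and 6 passed at 24 h, 5 higher and 1 lower, with medians of 0.65 and 0.85. UHRF1, which recruits DNMT1 to half-methylated DNA, had a mean of 1.49 CPM at 0 h, 53.8 CPM at 8 h and 96.4 CPM at 24 h, and its log2 changes were 5.17 ± 0.07 and 6.01 ± 0.08 at these times (adjusted p = 4.19e-22 and 4.58e-23). CDCA7, which works with HELLS, rose from 11.03 to 41.0 CPM at 8 h and 65.8 CPM at 24 h, a log2 change of 2.58 ± 0.08 at 24 h (adjusted p = 5.63e-17). PCNA, the sliding clamp to which DNMT1 binds at the replication fork, rose by 0.86 ± 0.06 at 8 h (adjusted p = 2.32e-11) and by 2.19 ± 0.06 at 24 h (adjusted p = 5.7e-18). DMAP1, which binds DNMT1 and is also a subunit of other chromatin complexes, fell by 0.98 ± 0.07 at 8 h (adjusted p = 1.29e-11).

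DNMT3A, a de novo methyltransferase, fell at every time, from 2.16 CPM per kilobase of exon at 0 h to 0.98 at 24 h, where DNMT3B stood at 0.583 and 0.670. It stood at 23.7, 22.4 and 23.4 CPM in untreated MYC-ER cells, 16.0, 16.7 and 17.2 CPM at 8 h, 10.2, 10.4 and 10.97 CPM at 24 h, and 17.5, 18.7 and 18.0 CPM at 48 h. Every 0 h library was above every treated library, and the 24 h libraries were the lowest. DNMT3A fell by 0.48 ± 0.07 on the log2 scale at 8 h (adjusted p = 3.51e-06), by 1.14 ± 0.07 at 24 h (adjusted p = 5.73e-12) and by 0.36 ± 0.07 at 48 h (adjusted p = 0.000256). With library size alone the 48 h fall was smaller and still passed (-0.20, adjusted p = 0.0331). The within-library ratio of DNMT1 to DNMT3A counts was 1.37, 1.45 and 1.37 at 0 h, 7.91, 7.07 and 7.03 at 8 h, 19.2, 18.3 and 16.7 at 24 h, and 2.90, 2.60 and 2.61 at 48 h, against 9.2 to 15.2 over the parental libraries.

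DNMT3B, the other de novo methyltransferase, was scarce, with 141 to 683 counts per library. MYC-ER libraries held 2.64, 2.35 and 3.10 CPM at 0 h and 1.02, 1.55 and 1.41 CPM at 8 h, and the 24 and 48 h libraries ran from 2.85 to 3.46 CPM. The 8 h libraries alone lay below the rest. DNMT3B fell by 1.02 ± 0.16 at 8 h (adjusted p = 7.67e-06) and rose again by 1.22 ± 0.16 from 8 to 24 h (adjusted p = 1.09e-06), and its log2 changes against 0 h of 0.20 ± 0.16 at 24 h and 0.19 ± 0.16 at 48 h did not pass (adjusted p = 0.277 and 0.367). DNMT3L, the catalytically inactive partner of the de novo enzymes in germ cells, had 0 counts in all 24 libraries.

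TET1 was the least abundant of the 10 genes per kilobase in all 8 groups and had the widest swing between consecutive times. Its counts ran from 21 to 340 per library. MYC-ER cells held 0.853, 0.641 and 0.701 CPM at 0 h, 0.195, 0.227 and 0.1401 CPM at 8 h, 1.98, 1.41 and 1.45 CPM at 24 h, and 0.767, 0.608 and 0.888 CPM at 48 h. The 8 h libraries were all below and the 24 h libraries all above the 0 h libraries. TET1 fell by 1.96 ± 0.27 at 8 h (adjusted p = 1.06e-06), then rose by 3.10 ± 0.27 from 8 to 24 h (adjusted p = 2.26e-09), which left it 1.14 ± 0.24 above 0 h at 24 h (adjusted p = 0.000337). At 48 h its log2 change against 0 h was 0.05 ± 0.24 (adjusted p = 0.908).

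TET2 followed the same dip at a higher level, without the overshoot passing the test. It stood at 34.4, 34.3 and 31.1 CPM at 0 h, 20.5, 23.9 and 20.5 CPM at 8 h, 39.1, 37.1 and 36.0 CPM at 24 h, and 31.0, 31.6 and 31.2 CPM at 48 h. The 8 h libraries were below all others of the line. TET2 fell by 0.62 ± 0.16 at 8 h (adjusted p = 0.0021) and rose by 0.79 ± 0.16 from 8 to 24 h (adjusted p = 0.000308). The log2 change at 24 h was 0.17 ± 0.16 (adjusted p = 0.387), although the 24 and 0 h replicates did not overlap and it passed in a fit of those groups alone (0.21, adjusted p = 0.00324) and after removal of GC and length trends (0.25, adjusted p = 0.0376). TET3, the remaining family member, rose by 0.42 ± 0.13 at 8 h (adjusted p = 0.00607) and fell by 0.73 ± 0.13 at 24 h (adjusted p = 3.9e-05), opposite in sign at both times to TET1.

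Of the other listed demethylation genes, TDG, the glycosylase that excises oxidised methylcytosine, rose by 0.50 ± 0.07 at 8 h (adjusted p = 1.33e-06) and by 0.24 ± 0.07 at 24 h (adjusted p = 0.00412). Counting TET3, 4 of 6 genes of that list passed at 8 h, all higher, and 4 at 24 h, 2 in each direction. Of 7 listed methyl-CpG readers and related genes 3 rose and 3 fell at 8 h, and 2 rose and 4 fell at 24 h. MBD3, a related subunit of the NuRD complex, rose by 1.17 ± 0.09 at 24 h (adjusted p = 1.2e-10), whereas ZBTB4 fell by 0.94 ± 0.07 (adjusted p = 1.49e-10). AHCY, which clears the product that inhibits methyltransferases, rose by 0.97 ± 0.07 at 24 h (adjusted p = 9.67e-11), while MAT2A, which makes the methyl donor S-adenosylmethionine, had a log2 change of 0.06 ± 0.06 (adjusted p = 0.382).

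Germline genes that promoter methylation commonly silences were at or near 0 counts. Of 10 listed, 2 had enough counts to be tested, MAEL and SYCP3. MAEL did not exceed 0.258 CPM in any library, and SYCP3 did not exceed 0.376 CPM. At these levels SYCP3 fell at 8 h in MYC-ER cells (-1.33 ± 0.50, adjusted p = 0.0232), from a mean of 0.172 to 0.0681 CPM. MAEL was called higher at 48 h (adjusted p = 0.0457), with a mean of 0.0115 CPM at 0 h and 0.123 CPM at 48 h. Both were higher in MYC-ER than parental libraries at 48 h, SYCP3 by 1.38 ± 0.47 (adjusted p = 0.0167) and MAEL on 6 to 39 counts against 0 to 3 (adjusted p = 0.0171). DNA methylation and histone marks themselves were not measured in these libraries.

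**Figure D3:**
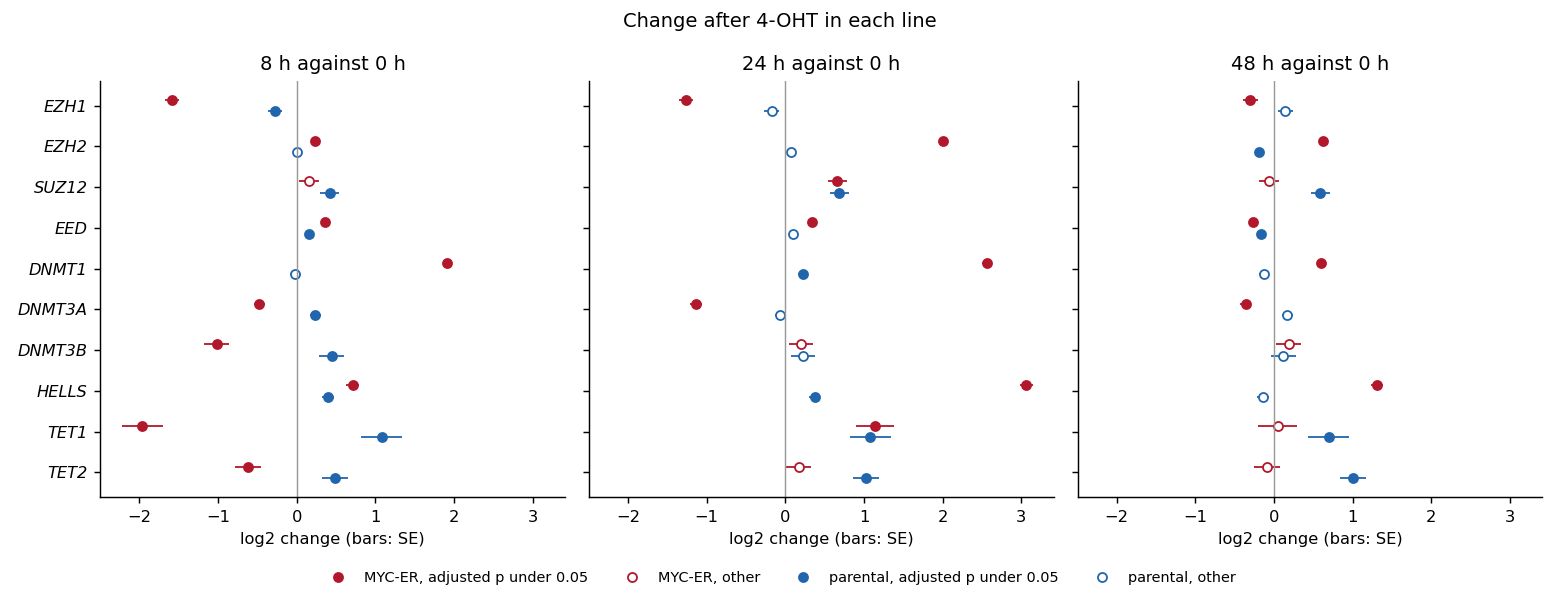
Log2 change of each of the 10 genes against 0 h of its own line after 8, 24 and 48 h of 4-OHT (red MYC-ER, blue parental), with bars of 1 standard error and filled points where the adjusted p was under 0.05. DNMT1, HELLS and EZH2 lie far to the right in MYC-ER cells at 24 h, where their values are 2.56, 3.06 and 2.01, while the parental values lie within 0.38 of 0 for these genes.

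In parental cells EZH2, DNMT1, HELLS, EZH1 and DNMT3A had log2 changes of at most 0.40 in size after 4-OHT, while SUZ12, TET1 and TET2 rose. At 8 h 8 passed, 7 higher and 1 lower, beside 31.0% of all genes, at 24 h 5 passed, all higher, beside 42.9%, and at 48 h 5 passed, 3 higher and 2 lower, beside 40.5%. These counts rest on the spread estimated over all 24 libraries. In a fit of only the groups compared, 1, 4 and 1 of the 10 genes passed at these times. Over all genes 1452 of 19596, 4923 of 19581 and 3274 of 19680 passed there. The 8 h count was 4 without parental 0 h replicate 1, without parental 0 h replicate 3 or without parental 8 h replicate 3.

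EZH2 stood at 33.4 to 35.3 CPM in untreated parental cells and at 34.1 to 35.2 CPM after 8 h, with log2 changes of 0.01 ± 0.05 and 0.07 ± 0.05 at 8 and 24 h (adjusted p = 0.927 and 0.31). It fell by 0.19 ± 0.05 at 48 h (adjusted p = 0.00688), a call lost in the fit of the compared groups (adjusted p = 0.172). DNMT1 stood at 142.7 to 157 CPM at 0 h and had a log2 change of -0.03 ± 0.06 after 8 h (adjusted p = 0.775). It rose by 0.22 ± 0.06 by 24 h (adjusted p = 0.00278), which did not pass in the fit of the compared groups (adjusted p = 0.0929) and was 0.14 under upper-quartile scaling. HELLS rose from 33.1, 38.6 and 30.8 CPM at 0 h to 45.7, 44.6 and 44.7 CPM at 8 h, a log2 change of 0.40 ± 0.07 (adjusted p = 0.000461). With GC and length trends removed the HELLS value was 0.17 at 8 h (adjusted p = 0.0146), and its 24 h rise of 0.37 became 0.08 (adjusted p = 0.246). EED fell by 0.16 ± 0.05 at 48 h (adjusted p = 0.00968), which was lost in the fit of the compared groups (adjusted p = 0.245) and with library size alone (-0.10).

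SUZ12, TET1 and TET2 were called higher in parental cells at all 3 times. TET2 held 13.2, 24.2 and 11.3 CPM at 0 h, 21.3, 24.2 and 22.7 CPM at 8 h, 33.4, 30.6 and 35.0 CPM at 24 h, and 32.4, 32.8 and 32.9 CPM at 48 h. Replicate 2 of the 0 h group lay among the 8 h libraries, and every 24 and 48 h library lay above the 0 h libraries. TET2 rose by 1.02 ± 0.17 on the log2 scale at 24 h (adjusted p = 5.21e-05) and by 1.01 ± 0.17 at 48 h (adjusted p = 7.35e-05), and these values were 1.43 and 1.42 without replicate 2 of the 0 h group. With GC and length trends removed they were 0.61 at both times, both still passing (adjusted p = 0.000106 and 0.000126). The 8 h value of 0.49 ± 0.16 (adjusted p = 0.0295) was 0.89 without that replicate and 0.29 with GC and length trends removed, and did not pass without parental 0 h replicate 1 (0.35, adjusted p = 0.165), 0 h replicate 3 (0.29, adjusted p = 0.182), 8 h replicate 2 (0.44, adjusted p = 0.0946) or 8 h replicate 3 (0.49, adjusted p = 0.0648).

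SUZ12 in parental cells held 34.2, 48.9 and 26.9 CPM at 0 h and 61.2, 57.8 and 58.1 CPM at 24 h, so that replicate 2 again stood closest to the treated libraries. Its log2 change was 0.69 ± 0.12 at 24 h (adjusted p = 0.000148) and 0.95 without that replicate, and 0.59 ± 0.12 at 48 h (adjusted p = 0.00069), or 0.85 without it. With GC and length trends removed these values were 0.30 and 0.20, with adjusted p of 0.00147 and 0.0274, and the 48 h call was lost in the fit of the compared groups (adjusted p = 0.0597). At 8 h the value of 0.42 (adjusted p = 0.0144) was lost without parental 0 h replicate 1 (0.37) or 0 h replicate 3 (0.25), where the adjusted p was 0.0697 and 0.0804, and was 0.68 without 0 h replicate 2. Removal of GC and length trends left 0.15 (adjusted p = 0.0989).

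TET1 in parental cells held 0.215, 0.308 and 0.178 CPM at 0 h and 0.371, 0.494 and 0.624 CPM at 8 h, without overlap, and rose by 1.08 ± 0.26 at both 8 and 24 h, with adjusted p = 0.00333 and 0.00183. Without parental 0 h replicate 2 the values at 8, 24 and 48 h were 1.33, 1.33 and 0.95. The 8 h rise did not pass in a fit of the compared groups (adjusted p = 0.0657), and removal of GC and length trends left 0.60 and 0.24 at 24 and 48 h (adjusted p = 0.0589 and 0.517). The 48 h value of 0.70 passed narrowly (adjusted p = 0.0372) with overlapping replicates. It did not pass without parental 0 h replicate 1 (0.64), 0 h replicate 3 (0.57), 48 h replicate 2 (0.53) or 48 h replicate 3 (0.68). The remaining parental calls at 8 h were small: EZH1 fell by 0.28 (adjusted p = 0.0281), and EED rose by 0.16 (adjusted p = 0.0161), DNMT3A by 0.24 (adjusted p = 0.0147) and DNMT3B by 0.44 (adjusted p = 0.0344), and each was lost in a fit of the compared groups. EZH1 also lost it without parental 0 h replicate 1 or 2 or 8 h replicate 1 or 3, DNMT3A without 0 h replicate 3 or 8 h replicate 3, and DNMT3B without 0 h replicate 1 or 3 or any 1 of the 8 h replicates. At 24 h DNMT3B had a value of 0.22 (adjusted p = 0.279), which passed without parental 0 h replicate 2 (0.39, adjusted p = 0.0483).

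The lines already differed before any 4-OHT, and for EZH1, EZH2, DNMT1, DNMT3A and HELLS in the opposite direction to the MYC-ER response at 24 h, a comparison that shares the same untreated MYC-ER libraries. At 0 h 8 of the 10 genes passed, 4 higher and 4 lower in MYC-ER cells, beside 64.3% of all genes (31.6% higher and 32.7% lower). HELLS was 6.06-fold, DNMT1 4.67-fold and EZH2 2.94-fold lower in the MYC-ER line, with log2 differences of -2.60 ± 0.08 (adjusted p = 3.26e-17), -2.22 ± 0.06 (adjusted p = 1.67e-18) and -1.56 ± 0.05 (adjusted p = 2.39e-16). EED was lower by 0.42 ± 0.05 on the log2 scale, which is a difference of 1.34-fold (adjusted p = 1e-07). EZH1 was higher in MYC-ER cells, 93.4 against 38.6 CPM as group means (1.28 ± 0.09, adjusted p = 8.16e-11), as were DNMT3A at 0.90 ± 0.07 (adjusted p = 2.85e-10) and TET1 at 1.64 ± 0.26 (adjusted p = 9.17e-06). The TET1 value was 1.89 without parental 0 h replicate 2.

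TET2 was higher at 1.04 ± 0.17 (adjusted p = 1.1e-05), a value of 1.44 without parental 0 h replicate 2 and of 0.59 with GC and length trends removed. SUZ12 did not pass (0.28 ± 0.12, adjusted p = 0.0517), but did without that replicate (0.55, adjusted p = 3.67e-06). DNMT3B had a log2 difference of -0.18 ± 0.16 (adjusted p = 0.328), with overlapping replicates. UHRF1 was 5.53 ± 0.08 log2 units lower in untreated MYC-ER cells (adjusted p = 9.03e-23, means 1.49 and 69.0 CPM) and PHF19 3.24 ± 0.06 lower (adjusted p = 3.82e-21), with negative differences in the sense MYC-ER minus parental. CBX7, KDM6A and KDM6B were higher by log2 differences of 1.997, 1.01 and 0.96. The parental KDM6A libraries ran from 19.65 to 29.4 CPM at 0 h.

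At 8 h 7 of the 10 genes differed between the lines, beside 48.6% of all genes. Among them were EZH2 (-1.33 ± 0.05, adjusted p = 1.12e-14), HELLS (-2.29 ± 0.08, adjusted p = 7.05e-16) and DNMT3B (-1.64 ± 0.16, adjusted p = 2.24e-08), which had not passed at 0 h. TET1 was also among them, and was now lower in MYC-ER cells (-1.40 ± 0.27, adjusted p = 0.000149). DNMT3A was among them at 0.19, a call lost without MYC-ER 8 h replicate 2 or 3 and without parental 8 h replicate 1 or 2 (adjusted p = 0.0505 to 0.115), and with GC and length trends removed (0.01). At 24 h 3 passed, beside 49.4% of all genes: EZH2, now higher in MYC-ER cells (0.38 ± 0.05, adjusted p = 3.16e-06), TET1 (1.70 ± 0.25, adjusted p = 6.44e-06) and EED (-0.18 ± 0.05, adjusted p = 0.0038), the last lost with upper-quartile scaling (-0.08) or library size alone (-0.05). DNMT1 and HELLS overlapped between the lines at 24 h, with log2 differences of 0.12 ± 0.06 (adjusted p = 0.0821) and 0.09 ± 0.07 (adjusted p = 0.328). Both passed as higher in MYC-ER cells in some other settings. With upper-quartile scaling DNMT1 was at 0.22 (adjusted p = 0.000537) and HELLS at 0.19 (adjusted p = 0.03). With GC and length trends removed they were at 0.155 (adjusted p = 0.00231) and 0.13 (adjusted p = 0.0378). The count of 3 at 24 h was 6 with upper-quartile scaling or in a fit of the compared groups, 7 with GC and length trends removed and 5 without parental 24 h replicate 2. Over all genes 11125 of 22158 passed with upper-quartile scaling and 11533 of 19738 in the fit of the compared groups. With GC and length trends removed 11689 of 21724 passed.

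At 48 h 8 differed between the lines, beside 56.7% of all genes, with DNMT1 at -1.50 ± 0.06 (adjusted p = 3.28e-15), HELLS at -1.15 ± 0.08 (adjusted p = 3.22e-11) and EZH2 at -0.75 ± 0.05 (adjusted p = 8.65e-11). SUZ12 passed at -0.37 ± 0.12 (adjusted p = 0.0142), but not with library size alone (-0.23), upper-quartile scaling (-0.23) or without parental 48 h replicate 3 (-0.33), and was -0.24 with GC and length trends removed. Of the changes between consecutive times in MYC-ER cells, 9 of 10 passed from 8 to 24 h beside 55.5% of all genes, and 8 of 10 from 24 to 48 h beside 53.7%. EED did not pass from 8 to 24 h (-0.02 ± 0.05, adjusted p = 0.754), and passed as a rise with library size alone (0.19, adjusted p = 0.00409), a setting that moved the median of all genes by 0.206. DNMT3B and TET2 did not pass from 24 to 48 h (-0.02, adjusted p = 0.944, and -0.26, adjusted p = 0.19).

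MYC-ER and parental cells responded differently in 9 of the 10 genes at 8 h, and in 7 at 24 h and 7 at 48 h, by the interaction test, which compares the MYC-ER change with the parental change, beside 55.2%, 54.5% and 45.0% of all genes tested. At 24 h the log2 difference of changes was 2.69 ± 0.11 for HELLS (adjusted p = 6.85e-15), 2.34 ± 0.08 for DNMT1 (adjusted p = 3.29e-16) and 1.94 ± 0.08 for EZH2 (adjusted p = 3.81e-15). It was -1.09 ± 0.13 for EZH1 (adjusted p = 3.39e-07) and -1.07 ± 0.10 for DNMT3A (adjusted p = 7.67e-09). For SUZ12 it was -0.03 ± 0.18 (adjusted p = 0.922), with SUZ12 having risen in both lines. Leaving out parental 0 h replicate 2 gave -0.29 (adjusted p = 0.0241), and at 8 h it took SUZ12 from -0.26 (adjusted p = 0.216) to -0.52 (adjusted p = 0.000211), while removing GC and length trends gave 0.33 at 24 h (adjusted p = 0.00425). The TET2 differences of -1.11, -0.85 and -1.10 at 8, 24 and 48 h were -1.52, -1.26 and -1.51 without that replicate. Without it TET1 passed at 48 h (-0.90, adjusted p = 0.0467, from -0.65, adjusted p = 0.149). At 8 h TET1 had the widest difference, -3.04 ± 0.37 (adjusted p = 3.77e-07), having fallen in MYC-ER cells and risen in parental cells.

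**Figure D4:**
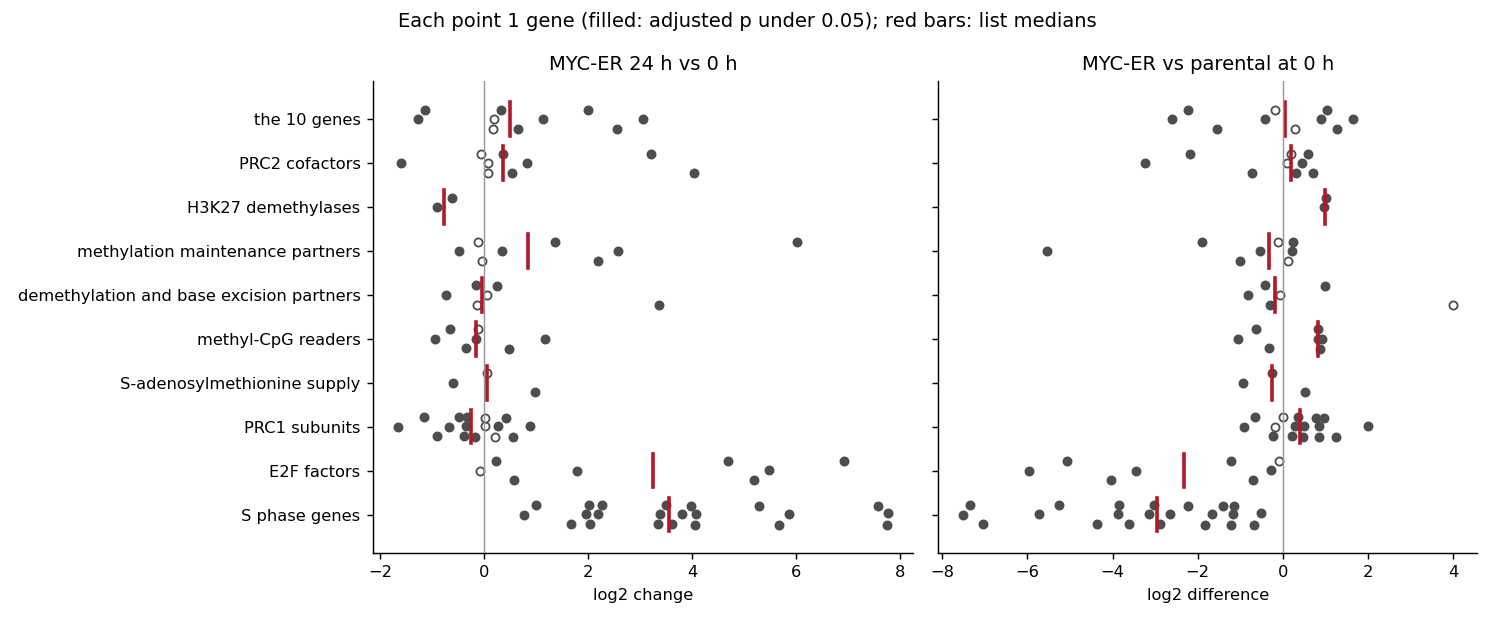
Log2 change at 24 h against 0 h in MYC-ER cells (left) and log2 difference between MYC-ER and parental cells at 0 h (right), with 1 point per tested gene, filled where the adjusted p was under 0.05, and a red bar at each list's median. The S phase and E2F lists have medians of 3.56 and 3.24 on the left and of -2.97 and -2.33 on the right, while the medians of the 10 genes are 0.50 and 0.05.

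Most listed genes of cell division moved with EZH2, DNMT1 and HELLS. All 22 listed S phase genes rose in MYC-ER cells at 24 h, led by RRM2 (7.77 ± 0.13, adjusted p = 6.94e-22) and TK1 (7.74 ± 0.13, adjusted p = 1.8e-21), as did all 10 G2 and mitosis genes. At 8 h 17 S phase genes were higher and 3 lower, and 7 G2 and mitosis genes were higher and 2 lower. At 48 h 18 S phase genes were higher and 2 lower, and all 10 G2 and mitosis genes were higher. Of all genes 32.2% were higher at 8 h, 30.4% at 24 h and 23.4% at 48 h. All 22 S phase genes were lower in the MYC-ER line at 0 h, beside 32.7% of all genes. Summed over the S phase list, untreated MYC-ER libraries held 402 to 413 CPM. They held 782 to 803 CPM after 8 h and 2324 to 2440 after 24 h, those after 48 h held 618 to 653, and the 12 parental libraries 1256 to 1940 CPM. The G2 and mitosis list summed to 33.7 to 35.6 CPM in untreated MYC-ER cells. After 8 h its sum was 61.8 to 64.8 CPM, after 24 h 1463 to 1530 CPM and after 48 h 420 to 456 CPM. The part of these genes in the changes of EZH2, DNMT1, HELLS, EZH1 and DNMT3A was not tested.

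Of 8 E2F factors all rose at 8 h and 7 at 24 h. E2F1, an activator of S phase genes, rose by 4.04 ± 0.13 and 5.19 ± 0.14 at 8 and 24 h (adjusted p = 1.02e-16 and 2.39e-18), and E2F8, a repressor of the family, by 1.69 ± 0.24 and 5.48 ± 0.24 (adjusted p = 1.93e-06 and 1.56e-14). The 6 summed basal epithelial markers were at 13890 to 14350 CPM in MYC-ER cells at 0 h and 9887 to 10270 CPM at 24 h. KRT5 made up most of the 0 h sum. Taken singly, 3 of the 6 were called higher and 2 lower at 24 h, beside 30.4% and 31.2% of all genes. Their median log2 change was 0.26. The summed fibroblast genes went from 370 to 377 CPM at 0 h to 102 to 109 CPM at 8 h and 79.9 to 91.9 CPM at 24 h. The part of the basal or the fibroblast genes in the results was not tested.

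Per kilobase of merged exons the order of the genes turned over during the response. In untreated MYC-ER cells EZH1 led at 20.1 CPM per kilobase, followed by SUZ12 at 9.94, DNMT1 at 5.91, EED at 4.85 and EZH2 at 3.80, and HELLS stood at 1.69. At 24 h DNMT1 led at 34.9, followed by SUZ12 at 15.7, EZH2 at 15.3 and HELLS at 14.1, and then EZH1 at 8.38. SUZ12 and EZH2 lay too close to rank at 24 h, since with transcript length in place of merged exons EZH2 stood at 17.7 and SUZ12 at 15.7. Untreated parental cells had DNMT1 first at 27.6 and EZH2 next at 11.2, and TET1 was last, at 0.0787 in MYC-ER and 0.0252 in parental cells at 0 h.

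Ordered by mean CPM over the 8 groups, EZH2, DNMT1 and HELLS were each lowest in untreated MYC-ER cells and highest in MYC-ER cells at 24 h, and for DNMT1 the 24 h libraries of both lines overlapped at the top. EZH1 was highest in MYC-ER at 0 h, next in MYC-ER at 48 h, and its 6 other groups overlapped from neighbour to neighbour between 31.1 and 42.6 CPM. DNMT3A was highest in MYC-ER at 0 h and lowest in MYC-ER at 24 h, where it overlapped parental cells at 24 h. DNMT3B was lowest in MYC-ER at 8 h and highest in parental cells at 8 h, at 1.33 and 4.15 CPM, and the 6 groups between overlapped their neighbours.

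Across the 24 libraries, which are 8 groups of 3 and not independent points, HELLS and EZH2 had a Pearson r of 0.979 in log2 CPM, and EZH2 and DNMT1 one of 0.82. EZH1 and DNMT1 ran against each other at -0.921, and EZH2 and DNMT3A at -0.912. Among 9688 genes averaging 10 CPM or more, those most like EZH2 were FANCI (0.991), NASP and RACGAP1 (both 0.988), and those most like HELLS were RACGAP1 (0.991), GINS1 and MELK (both 0.99). DNMT1 was most like TCOF1 (0.992), LMNB2 (0.991) and MCM3 (0.987), and EZH1 most like APBB3 (0.99), CALCOCO1 (0.989) and MTERF4 (0.985). The closest patterns to DNMT3B and TET1 reached 0.913 (SKA2) and 0.912 (CEP44), and these are the genes with the fewest counts of the 10. All these values share the same libraries and scaling and describe likeness of pattern alone.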

How the data were processed

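The deposited table holds raw counts per gene for 24 libraries, with no normalisation, per the file headers. The submitters' processing notes name Trimmomatic 0.39, STAR, StringTie 2.1.3b and GRCh38. If StringTie made the counts, they are estimates from coverage. Libraries were poly(A)-selected and strand-specific, per the labels' protocols, and whether counting used strand or shared reads is not given in the sources used here.

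Counts were scaled by TMM, filtered with filterByExpr (22158 of 60668 genes kept) and modelled with edgeR 4.0.16 under R 4.3.3, using all 24 libraries and a mean for each group. The 15 contrasts were tested two-sided with the quasi-likelihood F test and Benjamini-Hochberg adjustment over all genes, with 0.05 as the threshold. The biological coefficient of variation common to all genes was 0.151. On simulated counts with this design for MYC-ER at 24 h against 0 h, over 21559 genes, it recovered 79 of 100 changes of 1.5-fold and 95 of 100 of 2-fold. The simulation changed only those genes and none as scarce as TET1, whereas 61.6% of genes passed in the data. It therefore does not give the recovery in these data. Log2 CPM used a prior count of 2.

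The 10 genes and all lists were chosen with earlier results of these data known. Named genes are the 10, genes of lists of at most 10, and in longer lists the 2 largest rises and 2 largest falls in MYC-ER at 24 h; some of these are not reported here. Coordinates and promoters are RefSeq GRCh38.p14. Alternatives were other scalings, count filters, DESeq2 1.42.0, only the groups compared, removal of GC and length trends (21724 genes, lowess span 0.3), a replicate block, and leaving out each library.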

Additional observations from a re-analysis of the deposited data

Results flagged for a closer look

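The change after 4-OHT differed between MYC-ER and parental cells, by the interaction test, for the following genes, given as the MYC-ER log2 change minus the parental one. The genes with the largest rises in MYC-ER cells differed at all 3 times: EZH2 by 0.23 at 8 h, 1.94 at 24 h and 0.81 at 48 h, DNMT1 by 1.94, 2.34 and 0.73, and HELLS by 0.31, 2.69 and 1.46. EZH1 differed by -1.31, -1.09 and -0.45, DNMT3A by -0.71, -1.07 and -0.53, and TET2 by -1.11, -0.85 and -1.10 at the same times. EED differed by 0.20 at 8 h and 0.24 at 24 h, SUZ12 by -0.66 at 48 h, DNMT3B by -1.46 at 8 h and TET1 by -3.04 at 8 h.

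Several small differences were lost under another setting. With scaling by library size alone EZH2 at 8 h was 0.11, EED 0.08 and HELLS 0.20, none of which passed. HELLS at 8 h also did not pass without MYC-ER 0 h replicate 3 (0.27), MYC-ER 8 h replicate 2 (0.27) or parental 0 h replicate 2 (0.22), nor EED at 8 h without MYC-ER 0 h replicate 1 (0.16). Removal of GC and length trends left -0.22 for SUZ12 at 48 h (adjusted p = 0.068), 0.11 for EED at 24 h (adjusted p = 0.154) and -0.32 for EZH1 at 48 h (adjusted p = 0.0557). It left TET2 at -0.36 at 24 h and -0.66 at 48 h, DNMT3A at -0.33 at 48 h and HELLS at 0.53 at 8 h, all still passing.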

How the results depend on the processing

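Over 150 values for the 10 genes and 33 alternative settings, 2300 of 2430 refits stayed on the same side of the threshold. Of the rest, 76 lost a call, 52 gained one in the same direction and 2 changed sign with a call. Of 107 called values, 81 passed in every refit and none changed sign. Among the 2300 refits, 59 changed the sign of a value that passed in neither fit. The 2 sign changes were SUZ12 in the interaction at 24 h with GC and length trends removed (0.33) and EED from 8 to 24 h with library size alone (0.19). The number of the 10 genes called in parental cells fell to 1 at 8 h and 1 at 48 h in a fit of only the groups compared, from 8 and 5, and leaving out 1 library gave 4 to 7 at 8 h. Between the lines at 24 h the count of 3 became 5 with library size alone, 6 with upper-quartile scaling, 6 with only the groups compared and 7 with GC and length trends removed, and leaving out 1 library gave 3 to 5. Over all genes 10936 of 22158 passed between the lines at 24 h in the main fit and 11126 with library size alone. The cause of the changes in count was not tested. With fewer samples, fits of only the groups compared or without 1 library also estimate the spread from less data.

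With the replicate number as a block, 9 of the 10 genes passed between the lines at 0 h instead of 8, SUZ12 being added (0.30, adjusted p = 0.0322), and every other count was as without the replicate block. The numbers did not pair the samples: same-numbered deviations correlated from -0.428 to 0.586 (median -0.00171), and all 3 were over 0.1 in 1 of 28 pairs of groups. Depth limits TET1, at 21 to 340 counts per library.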
